A study of Solanum lycopersicum and Solanum pimpinellifolium with 9 samples.

Results

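Root and stem of tomato shared 164 genes whose transcripts were more abundant there than in leaf, flower and fruit, out of 34727 gene IDs measured. A gene was taken when its RPKM, its reads scaled to coding length and library size, was at least 25 in both the root and the stem library. Both levels also had to lie at least 2 log2 units, 4-fold, above each of the 5 other MoneyMaker libraries on the scale log2(RPKM + 5). In the text these are called the root-and-stem genes, and the smaller of their 2 leads over the highest other library is called the margin. Root, stem, leaf, flower and the 3 fruit libraries of MoneyMaker chose the genes, so the levels in those 7 libraries are a description. The 2 libraries of LA0722 took no part in the choice.

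The study sequenced PCR-amplified cDNA of 9 tissues by pyrosequencing, with 1 library per tissue and no replicate. MoneyMaker, a cultivar of Solanum lycopersicum, gave the grown underground root, the upper stem just under the apical meristem, the fully expanded leaf of 2 to 3 weeks and the fully open flower without its sepals. Its fruit was taken green at full size (mature green), at the turn of colour (breaker) and red (ripe). LA0722, an accession of the wild red-fruited Solanum pimpinellifolium, gave the fully expanded leaf of 2 to 4 weeks and the ripe red fruit. All plants stood in soil in a greenhouse with 16 h of light and 8 h of dark, and no treatment or mutation is named in the labels. The implied depth lay between 211201 reads in LA0722 ripe fruit and 380306 reads in MoneyMaker leaf, so 1 read on 1 kb of coding sequence was worth 4.73 and 2.63 RPKM in those libraries. Every difference below is between single libraries. Intervals cover counting error only, no test between tissues was possible, and fewer cells of a type cannot be told apart from less RNA per cell.

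Root and stem form the axis of the plant. Both are built around xylem, which carries water in cells with thick lignified walls, and phloem, which carries sugars, and both hold growing zones behind their tips. Leaf is given mostly to photosynthesis, and fleshy fruit to storage and, at ripening, to pigment, sugar and softening. The genes carry Solyc IDs and no names, and 0 of these IDs occur in the reference table of 41476 tomato genes, so no role is given to any gene here, the labelled tissues were not checked against marker genes, and no sequence is shown. Genes are named by ID, at most 2 for each ranking. In such an ID the digits after Solyc give the chromosome and the last digits follow the order along it.

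No pair of MoneyMaker tissues shared more genes under the rule than root and stem. All 21 pairs of the 7 libraries were put through it, each against the 5 remaining libraries. Root and stem had 164 genes among the 4949 at 25 RPKM or more in both, which is 3.31%. Breaker and ripe fruit, neighbouring stages of a single organ, followed with 107 genes among 4556, or 2.35%. Stem and leaf, both shoot organs, had 88 genes among 3773, or 2.33%. The 18 other pairs had between 0 and 19 genes, among them 15 for root and leaf and 18 for root and flower. A pair with a single fruit stage had also to exceed the remaining fruit stages. The counts are therefore not a plain measure of how much any pair of tissues shares. With median-ratio size factors, which shift flower by 1.33 and leaf by 0.57 log2 units and root by -0.39 and stem by -0.30, the counts were nearly equal, 93 for root and stem, 93 for breaker and ripe fruit and 89 for stem and leaf. With upper-quartile scaling they were 125, 79 and 100.

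**Figure D1:**
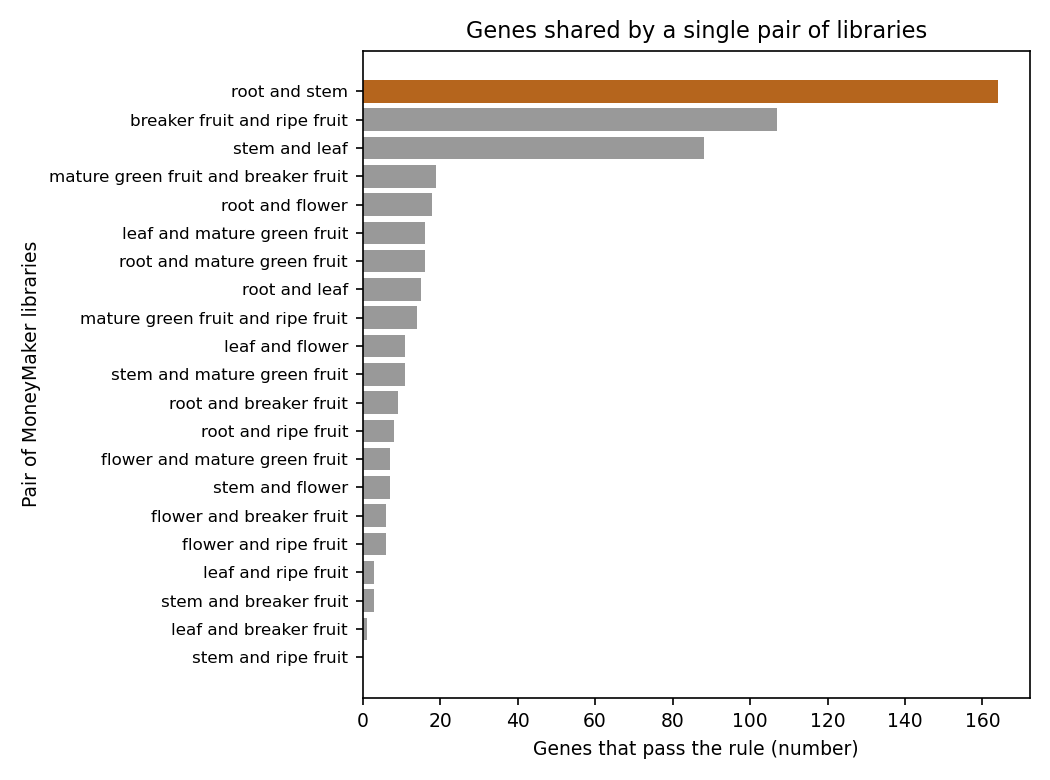
Number of genes (x axis) that passed the rule for each of the 21 pairs of MoneyMaker libraries (y axis), as deposited. The bar of root and stem stands at 164, above breaker and ripe fruit at 107 and stem and leaf at 88, while the other bars reach at most 19.

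Of all RPKM in the root library, 6.57% fell to the root-and-stem genes, and of all RPKM in the stem library 4.03%. Among the other MoneyMaker libraries their share was highest in leaf at 0.208%, followed by mature green fruit at 0.125%, breaker fruit at 0.063%, flower at 0.0482% and ripe fruit at 0.0189%. Root levels ran from 25.86 to 16765 RPKM with a median of 123 RPKM, and stem levels from 26.37 to 6552 RPKM with a median of 112 RPKM. The median over all 4949 genes at 25 RPKM or more in both was 78.9 RPKM in root and 77.6 RPKM in stem. At 1000 RPKM or more there were 19 root-and-stem genes in root and 11 in stem. The 10 most abundant held 53.2% of the group's RPKM in root and 46.6% in stem, so a few genes carried much of the signal. Without its most abundant gene the group still took 5.32% of root RPKM and, likewise, 3.53% of stem RPKM.

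**Figure D2:**
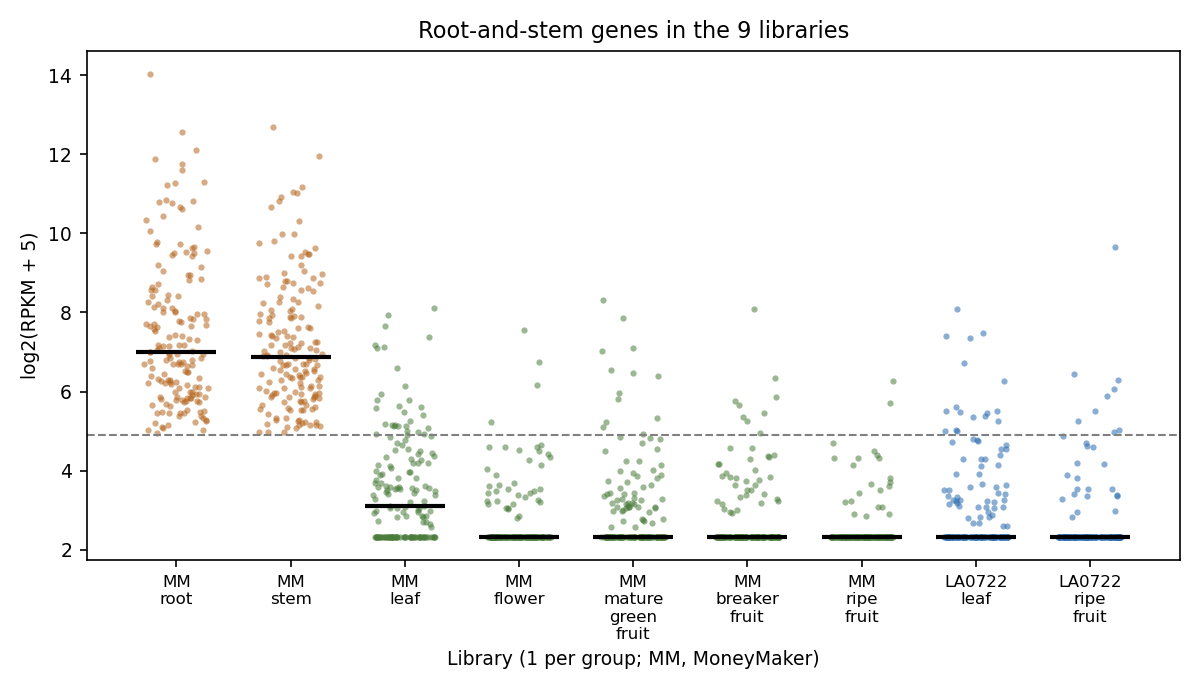
Level of the 164 root-and-stem genes, as log2(RPKM + 5) on the y axis, in the 9 libraries on the x axis (a point per gene, orange for root and stem, green for other MoneyMaker and blue for LA0722 libraries; black bar, median; dashed line, 25 RPKM). Root and stem lie above the line by the rule, and the median is at the floor of 0 RPKM in 6 of the 7 other libraries, with 3.63 RPKM in MoneyMaker leaf.

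Traces of these transcripts outside root and stem were listed most often in leaf. In MoneyMaker leaf 103 of the 164 genes were listed above 0, against 38 in flower, and in fruit 68 at mature green, 41 at breaker and 22 at the ripe stage. Of all 4949 genes at 25 RPKM or more in root and stem, 95.3% were listed above 0 in leaf and 79.7% in flower, and in fruit 94.5% at mature green, 89.6% at breaker and 87.6% at the ripe stage. The implied totals were 380306 reads for leaf, 213741 for flower, 346944 for mature green, 214610 for breaker and 270466 for ripe fruit. Ripe fruit, with more reads than flower or breaker, listed the fewest root-and-stem genes. The next highest library was leaf for 75 genes, mature green fruit for 22, breaker fruit for 13, flower for 10 and ripe fruit for 1. Without the leaf library in the rule 338 genes would have passed, while leaving out flower or a fruit stage gave 168 to 202.

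A further 43 genes were listed at 0 in all 5 other MoneyMaker libraries. Any gene at 25 RPKM or more in both organs and at 0 elsewhere passes the rule, so these are all 43 such genes. Of the 43, 38 were also at 0 in both LA0722 libraries, and 17 had at least 10 reads in root and in stem. Across the whole group the median was 35.5 reads in root and 33 in stem. All these reads are the smallest whole numbers that match the values, and a longer coding length with more reads can match as well. Counted so, root or stem held fewer than 10 reads for 31 genes and 3 or fewer for 10 genes. The place of these genes in the group is uncertain. Inferred coding lengths ran from 60 to 3147 nt with a median of 843 nt, against 786 nt over the 4949 genes. Below 300 nt there were 27 root-and-stem genes (16.5%), against 509 of the 4949 (10.3%). Each length was fitted on the libraries where the gene was above 0. In MoneyMaker leaf that was 62.8% of the root-and-stem genes and 95.3% of the 4949. With fewer values to match, the smallest length can come out shorter, so these shares are not like for like. The part of this in the difference was not tested.

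Solyc11g069900 had the largest margin, 9.64 log2 units, and the highest mean of root and stem on the log2(RPKM + 5) scale. It stood at 16765 RPKM in root and 3973 RPKM in stem, with 986 and 233 reads, and was listed at 0 in the 7 other libraries. Against the deepest of these, MoneyMaker leaf, it was at least 370-fold higher in root and at least 87.6-fold higher in stem, counting the floor as 3 reads in that library. Against flower the bounds were 208-fold for root and 49.2-fold for stem. As 85 coding lengths matched its values, the length of 174 nt and the reads given are the smallest that do.

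Solyc07g042520 had the second largest margin, 7.96 log2 units. It stood at 1781 RPKM in root (1452 reads) and 2097 RPKM in stem (1705 reads). MoneyMaker leaf held 2.18 RPKM, which is 2 reads, and LA0722 leaf 1.38 RPKM, a single read, while flower, all 3 MoneyMaker fruit stages and LA0722 ripe fruit were listed at 0. Root exceeded MoneyMaker leaf 817-fold (95% exact interval 226 to 6750) and stem exceeded it 962-fold (266 to 7950). Root and stem themselves were close, with a root to stem ratio of 0.849 (0.791 to 0.911).

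Solyc10g009150 ranked second by the mean of its root and stem levels on the log2(RPKM + 5) scale. It stood at 3114 RPKM in root and 2322 RPKM in stem, with 581 and 432 reads. Lower levels were present in MoneyMaker leaf at 133 RPKM, mature green fruit at 83.5 RPKM and breaker fruit at 8.44 RPKM, and it was listed at 0 in flower, MoneyMaker ripe fruit and both LA0722 libraries. Root exceeded MoneyMaker leaf 23.3-fold (16 to 35.4) and stem exceeded it 17.4-fold (11.9 to 26.5). It therefore joined the group at an abundance like that of Solyc07g042520 but with a lesser lead over leaf.

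**Figure D3:**
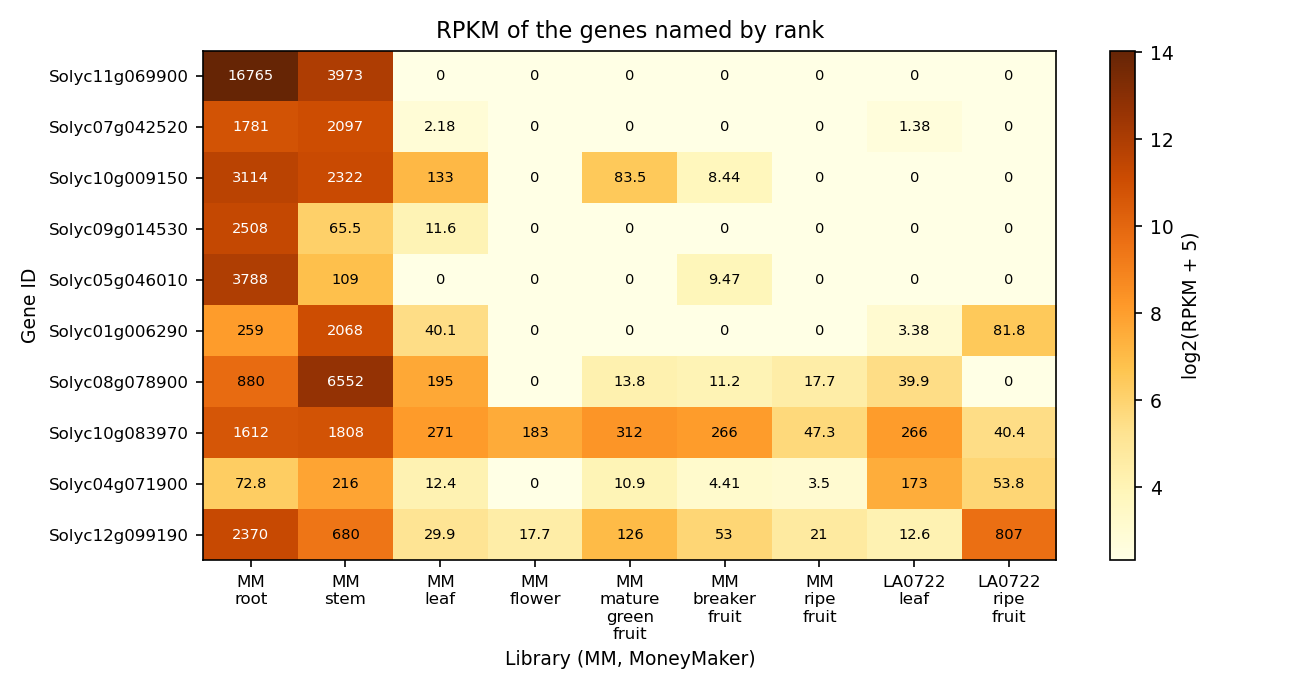
RPKM of the 10 genes named by rank (rows) in the 9 libraries (columns), with colour for log2(RPKM + 5). Root and stem are the darkest cells in 8 rows, while LA0722 ripe fruit is dark for Solyc12g099190 at 807 RPKM and LA0722 leaf for Solyc04g071900 at 173 RPKM.

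Most margins were modest. The median was 2.77 log2 units, 65 genes reached 3, 26 reached 4, 10 reached 5 and 3 reached 6. At the edge, Solyc12g014310 (222 RPKM in root, 135 RPKM in stem, 29.8 RPKM in leaf) was the last inside with a margin of 2.003, next to Solyc11g012660 with 2.017. Just outside were Solyc01g109250 with 1.999 (170 RPKM in root, 131 RPKM in stem, 29 RPKM in leaf) and Solyc02g077260 with 1.979. Solyc11g012660 had a single read outside root and stem, in breaker fruit.

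Most of the shared genes stood within 2-fold between root and stem, though a smaller share than among the 4949 genes. The median difference, root minus stem, was 0.06 log2 units, with quartiles of -0.47 and 0.9. Within 1 log2 unit (2-fold) of each other lay 101 of the 164 genes, or 61.6%, where 77.1% of the 4949 genes did. Root was at least 1 log2 unit above stem for 40 genes, or 24.4%, where 11.9% of the 4949 genes did the same. Root was at least 1 log2 unit below stem for 23 genes, or 14%, where 10.9% of the 4949 did. At 2 log2 units there were 13 genes with root above (7.93%, against 2.18% of the 4949) and 4 with root below (2.44%, against 2.1%). These levels chose the genes, and the comparison is therefore a description. Across the 164 genes the Spearman correlation of root with stem RPKM was 0.71; the points share the 2 libraries, their coding lengths and the minimum of 25 RPKM.

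**Figure D4:**
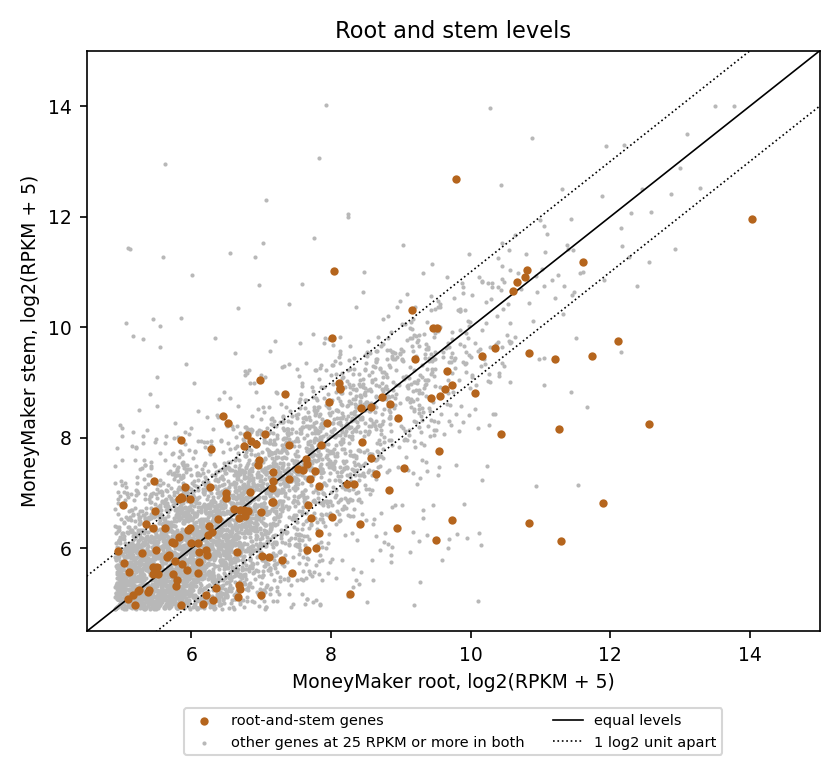
Root level (x axis) against stem level (y axis), both as log2(RPKM + 5), for the 164 root-and-stem genes and the other genes at 25 RPKM or more in both libraries. The solid line marks equal levels and the dotted lines a distance of 1 log2 unit; 40 root-and-stem genes lie on or beyond the lower line, toward root, and 23 on or beyond the upper line, toward stem.

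Solyc09g014530 and Solyc05g046010 leaned most to root. Solyc09g014530 stood at 2508 RPKM in root (384 reads) and 65.5 RPKM in stem (10 reads), 38.3-fold higher in root (20.6 to 80.5). Only MoneyMaker leaf, of the 7 other libraries, held it, at 11.6 RPKM or 2 reads. Solyc05g046010 stood at 3788 RPKM in root (630 reads) and 109 RPKM in stem (18 reads), 34.9-fold higher in root (21.9 to 59.3), with a single read in breaker fruit and 0 in the rest. On the log2 scale stem lay nearer to the next library, with margins of 2.09 and 2.97, than to root, which was 5.16 and 5.06 log2 units higher.

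Solyc01g006290 and Solyc08g078900 leaned most to stem. Solyc01g006290 stood at 259 RPKM in root (86 reads) and 2068 RPKM in stem (686 reads), a root to stem ratio of 0.125 (0.0987 to 0.157). LA0722 leaf held 3.38 RPKM and MoneyMaker leaf 40.1 RPKM, and flower and all MoneyMaker fruit stages were listed at 0. Solyc08g078900, the most abundant of the group in stem, stood at 880 RPKM in root (124 reads) and 6552 RPKM in stem (921 reads), a ratio of 0.134 (0.11 to 0.162). It was found in LA0722 leaf at 39.9 RPKM, in MoneyMaker leaf at 195 RPKM and in the MoneyMaker fruit stages at 11.2 to 17.7 RPKM, and was listed at 0 in flower and LA0722 ripe fruit. For both, root exceeded MoneyMaker leaf by less than stem did: 6.45-fold (3.7 to 12) and 4.5-fold (3.02 to 6.9) in root, 51.6-fold and 33.5-fold in stem.

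The genes of even level and the leaning ones are set side by side for their traces elsewhere, as a description. Of the 101 within 1 log2 unit, 72 (71.3%) were listed above 0 in MoneyMaker leaf, against 20 of the 40 that leaned to root (50%) and 11 of the 23 that leaned to stem (47.8%). In the order even, leaning to root and leaning to stem, the shares were 49.5%, 25% and 34.8% for mature green fruit and 17.8%, 2.5% and 13% for ripe fruit. They lay closer together for breaker fruit, at 25.7%, 27.5% and 17.4%, and for flower, at 24.8%, 22.5% and 17.4%. The median inferred coding length, each the smallest that matches, was 897 nt for the even genes, 472.5 nt for those leaning to root and 831 nt for those leaning to stem. The part of length in these shares was not tested.

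In LA0722, whose libraries the rule did not use, most root-and-stem genes were also low. Both are of tissues that the rule had held low in MoneyMaker. In LA0722 leaf 17 of the 164 genes (10.4%) stood at 25 RPKM or more, where 64.3% of the 4949 genes at 25 RPKM or more in root and stem did. In LA0722 ripe fruit 9 of the 164 (5.49%) did, where 61.3% of the 4949 did. LA0722 leaf listed 64 of the 164 genes above 0 (39%, against 87.7% of the 4949) and LA0722 ripe fruit 28 (17.1%, against 82.3%), and 91 genes were at 0 in both. The lower of the MoneyMaker root and stem levels was at least 2 log2 units above both LA0722 libraries for 146 of the 164 genes (89%), where 13.4% of the 4949 genes met the same condition. The group's share of summed RPKM was 0.132% in LA0722 leaf, and LA0722 ripe fruit had 0.101%. In ripe fruit 58.1% of that came from a single gene, Solyc12g099190, without which the share was 0.0423%. No LA0722 root or stem library was analysed here, so nothing is shown of these genes in root or stem of the wild plant.

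Sets built by the same rule on other tissues set the scale. At 25 RPKM or more in LA0722 leaf were 5.51% of the 563 genes of root alone, 16% of the 100 genes of stem alone and 60.2% of the 88 genes of stem and leaf. In LA0722 ripe fruit the shares were 3.55%, 6% and 7.95%. The root-and-stem genes, at 10.4% and 5.49%, lay between root alone and stem alone in both libraries and under stem and leaf in both. The sets overlap: 13 root-and-stem genes also belong to root alone and 4 to stem alone. With 1 library per tissue these differences between sets were not tested.

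**Figure D5:**
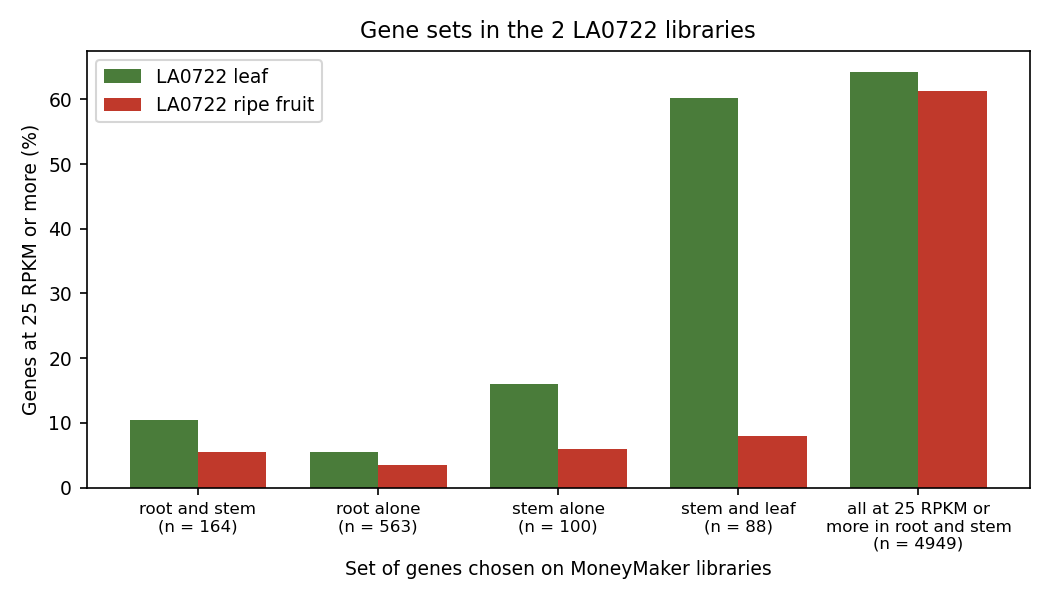
Share of genes at 25 RPKM or more (y axis, percent) in LA0722 leaf and LA0722 ripe fruit, for sets of genes chosen on MoneyMaker libraries (x axis). The root-and-stem genes reach 10.4% and 5.49%, against 64.3% and 61.3% of all genes at 25 RPKM or more in root and stem.

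Of the 164 genes, 23 reached 25 RPKM in at least 1 LA0722 library, and 3 in both. Among these 23, 13 were higher in leaf by 2 log2 units or more, where 19.4% of the 7551 genes compared were, and 4 were lower, where 19.3% were. The median difference, leaf minus ripe fruit, was 2.68 log2 units over the 23 genes and -0.02 over the 7551. With median-ratio size factors, under which 93 genes pass the rule, that median was 0.51. Few reads stand behind many of these values. Between 2 and 94 reads carried the 17 genes in LA0722 leaf, 8 of them with fewer than 10, and between 1 and 90 reads the 9 genes in LA0722 ripe fruit, 3 of them with fewer than 10. More of the 23 genes entered the comparison through LA0722 leaf (17) than through LA0722 ripe fruit (9). Whether the lean to leaf is particular to LA0722 cannot be read from MoneyMaker, because leaf levels decided which genes were compared there. In MoneyMaker, whose levels chose the genes, 25 of 29 compared were higher in leaf than in ripe fruit by 2 log2 units or more. None of the 29 was lower by as much, but all 29 had entered by their leaf level. Only 2 of them also reached 25 RPKM in MoneyMaker ripe fruit, so few could have come out lower. Of the 7616 genes compared there, 18.6% were higher and 26.4% lower.

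Solyc10g083970 and Solyc04g071900 were the highest in LA0722 leaf. Solyc10g083970 stood at 266 RPKM in LA0722 leaf (94 reads) and 271 RPKM in MoneyMaker leaf (121 reads), a ratio of 0.982 (0.742 to 1.3), and at 40.4 RPKM in LA0722 ripe fruit and 47.3 RPKM in MoneyMaker ripe fruit. It was present in all 9 libraries, with 1612 RPKM in root and 1808 RPKM in stem. Flower had 183 RPKM, mature green fruit 312 RPKM and breaker fruit 266 RPKM, so it was in the group by its excess in root and stem and not by absence elsewhere. Solyc04g071900 stood at 173 RPKM in LA0722 leaf (55 reads) and 12.4 RPKM in MoneyMaker leaf (5 reads), 13.9-fold higher in LA0722 (5.61 to 44.5). In LA0722 ripe fruit it had 53.8 RPKM and in MoneyMaker ripe fruit 3.5 RPKM, a single read. MoneyMaker root held 72.8 RPKM and stem 216 RPKM and the ratio of root to LA0722 leaf was 0.421 (0.253 to 0.683), so LA0722 leaf was above MoneyMaker root. Mature green fruit held 10.9 RPKM and breaker fruit 4.41 RPKM, and flower was listed at 0.

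Solyc12g099190 and Solyc01g006290 were the highest in LA0722 ripe fruit. Solyc12g099190 stood at 807 RPKM in LA0722 ripe fruit (90 reads) and 21 RPKM in MoneyMaker ripe fruit (3 reads), 38.4-fold higher in LA0722 (12.7 to 190). LA0722 leaf held 12.6 RPKM (2 reads) and MoneyMaker leaf 29.9 RPKM (6 reads). In MoneyMaker root it stood at 2370 RPKM and in stem at 680 RPKM, and the interval of the ratio of stem to LA0722 ripe fruit, 0.842 (0.636 to 1.12), includes equal levels. Flower held 17.7 RPKM, mature green fruit 126 RPKM and breaker fruit 53 RPKM. Solyc01g006290, which leaned to stem, had 81.8 RPKM (17 reads) in LA0722 ripe fruit and was listed at 0 in MoneyMaker ripe fruit, at least 7.26-fold higher in LA0722.

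The species could be set side by side for the same tissue, although the rule had already held MoneyMaker leaf and ripe fruit down. Among the 39 root-and-stem genes at 25 RPKM or more in either leaf, 5 were higher in LA0722 and 17 lower by 2 log2 units or more, where 17.1% and 15.2% of the 7015 genes compared were. Of the 29 genes at 25 RPKM or more in MoneyMaker leaf, 7 reached that level in LA0722 leaf (24.1%) and 11 were listed at 0 there (37.9%). Of all 3094 genes at 25 RPKM or more in root, stem and MoneyMaker leaf, 76.9% reached it in LA0722 leaf and 7.34% were listed at 0. The 29 and the 3094 genes were not matched for their level in MoneyMaker leaf. The highest value there was 271 RPKM among the root-and-stem genes and 62008 RPKM among the 3094. The part of level in this gap was not tested. Among the 10 genes at 25 RPKM or more in either ripe fruit, 5 were higher in LA0722 and 1 lower, where 9.09% and 14.1% of the 7088 genes compared were. Median-ratio size factors shift LA0722 leaf by -0.14 and MoneyMaker leaf by 0.57 log2 units, so they lower LA0722 leaf against MoneyMaker leaf.

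The 164 genes were spread over all 12 numbered chromosomes. Chromosome 9 held the most, 23 of its 371 genes at 25 RPKM or more in root and stem (6.2%), and 19 of these had at least 10 reads in both organs. By share chromosome 7 came next with 15 of 351 (4.27%), and chromosome 4 had the lowest share, 9 of 395 (2.28%). None of the 36 genes with no assigned chromosome, numbered 0 in the IDs, belonged to the group. Another root-and-stem gene lay within 10 listed genes for 27 of the 164 (16.5%), against 45.3% of the 563 genes of root alone, 9% of the 100 of stem alone and 28.4% of the 88 of stem and leaf. The sets differ in size, and these shares were not tested against each other.

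In 4 cases both of 2 consecutive IDs belonged to the group, and they are named here after their values were seen. Solyc02g083480 and Solyc02g083490 leaned to stem alike, with 254 and 86.8 RPKM in root and 895 and 302 RPKM in stem, differences of -1.80 and -1.74 log2 units. Solyc08g067500 and Solyc08g067510 leaned to root alike, with 4422 and 2461 RPKM in root and 861 and 281 RPKM in stem, differences of 2.35 and 3.11. Solyc09g007650 and Solyc09g007660 were close to even, with 203 and 727 RPKM in root and 148 and 1014 RPKM in stem. Solyc05g046010 and Solyc05g046020 went opposite ways: the first stood at 3788 RPKM in root and 109 RPKM in stem, the second at 156 RPKM in root and 437 RPKM in stem. The next gene, Solyc05g046030, had 45.1 RPKM in root, 27.1 RPKM in stem and 10.7 RPKM in leaf, a margin of 1.03 that left it outside. The other genes directly beside these pairs had margins of 0.4 or less. Reads can be shared between near-identical neighbours, and whether they were here was not tested.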

How the data were processed

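The authors deposited 1 table of RPKM values with 9 columns, made from pyrosequencing reads of PCR-amplified cDNA per the labels' protocols. HTSeq is named per the submitters' processing notes. Not given in the sources used here were its version, the aligner, genome build, annotation and filters. Each column went to the sample its name gives. The MoneyMaker column for a berry with a number was taken as ripe fruit by elimination, and that for mature fruit as mature green. The genes and lists were chosen with earlier results of these data known.

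The RPKM of each gene move in steps worth 1 read, which gave whole reads, implied totals and coding lengths in steps of 3 nt (taken as the smallest that match, in Python 3.11.15 with numpy 2.4.6, pandas 2.3.3 and scipy 1.17.1, tested on simulated data). Recovered reads summed to 96.2% to 99.9% of the totals. Folds are ratios of reads per library with exact Clopper-Pearson intervals at 95%, or bounds against 3 reads. A gene called higher or lower differs by 2 log2 units with 25 RPKM in the higher library. Genes named by rank are the first 2 by margin, by mean log2 level, by root minus stem difference in each direction, by level in each LA0722 library, and on each side of the threshold. Tests planned on lists by gene name were not run, since no ID could be paired with a name.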

Additional observations from a re-analysis of the deposited data

Results flagged for a closer look

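For 2 of the genes named by rank, leaf minus ripe fruit had opposite signs in the 2 species; this was not tested, as each tissue has 1 library. For Solyc12g099190 the difference was -5.53 log2 units in LA0722 (12.6 RPKM in leaf, 807 RPKM in ripe fruit) and 0.42 in MoneyMaker (29.9 and 21 RPKM). For Solyc01g006290 it was -3.37 in LA0722 (3.38 RPKM in leaf, 81.8 RPKM in ripe fruit) and 3.17 in MoneyMaker (40.1 RPKM in leaf, listed at 0 in ripe fruit). The read behind the LA0722 leaf value of Solyc01g006290 is a single one. The MoneyMaker values of Solyc12g099190 rest on 6 reads in leaf and 3 in ripe fruit, so the sign of its MoneyMaker difference is uncertain.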

How the results depend on the processing

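The 164 genes became 65 with a pseudocount of 20 RPKM, 73 with a minimum of 100 RPKM, 366 and 65 with differences of 1 and 3 log2 units, 93 with median-ratio size factors and 338 with no leaf library in the rule; the 10 other alternatives gave 125 to 208. Every alternative that enlarged the group kept all 164, and median-ratio size factors kept 92. Genes at the level in LA0722 leaf, 17 in the report, were 11, 4, 67, 6, 7 and 74 in the same order, 34 with a minimum of 10 RPKM and 28 without mature green fruit. The minima of 10 and 100 RPKM also set the level asked of LA0722, which was 25 RPKM elsewhere; with no minimum in root and stem the counts at 25 RPKM were 17 for LA0722 leaf, and 10 for its ripe fruit. In LA0722 ripe fruit, 9 in the report, they were 1 with a minimum of 100 RPKM, 36 and 2 with differences of 1 and 3 log2 units, 5 with median-ratio size factors, 16 without leaf, 17 with a minimum of 10 RPKM and 14 without mature green fruit. The LA0722 leaf minus ripe fruit median of 2.68 was 4.4 with a minimum of 100 RPKM, 3.29 with 3 log2 units, 0.51 with median-ratio size factors, 1.58 with a pseudocount of 20 RPKM, 1.88 with 1 log2 unit and 3.2 without leaf; the other alternatives gave 2.24 to 2.93. The root minus stem median stayed between 0 and 0.13. For the 14 genes named by rank membership was the same in 189 recomputed cases and gained in 8. It was lost in 27, with the margin under the difference asked in 24 and the minimum of 100 RPKM missed in 3, and no margin changed sign. The cause of these shifts was not tested beyond what each setting changes by construction. No paired analysis was possible because each group holds 1 library. Depth limits the values most in flower, breaker fruit and LA0722 ripe fruit, the 3 shallowest libraries.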
